A study of Homo sapiens with 45 samples.

Results

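The 10 genes described here, part of the bone morphogenetic protein (BMP) response, were followed through palbociclib (PB) treatment of neuroblastoma cell lines. They are the type I receptors BMPR1A and BMPR1B, the receptor-regulated SMAD9, the inhibitory SMAD6 and SMAD7, the pseudoreceptor BAMBI and the inhibitors of DNA binding ID1, ID2, ID3 and ID4, which make up 10 of the 29159 genes counted. The genes were chosen by name, and the set was selected on values of ID1 and ID3 that lay far higher in replicate 5 of IMR-32 than in replicates 1 to 4, so replicate 5 is shown apart throughout and its distance from the others is described without a test. Polyadenylated RNA was sequenced from IMR-32, SH-SY5Y and SK-N-BE(2)C, human cell lines grown in DMEM/F12 with fetal bovine serum and described by the study as adrenergic neuroblastoma. Each line was sampled as control, after 24 h of 1 μM PB and after a longer exposure, 7 d in SK-N-BE(2)C and 5 d in IMR-32 and SH-SY5Y, with 5 replicates in each of 9 groups and 45 libraries in all. PB blocks the cyclin-dependent kinases CDK4 and CDK6, which otherwise phosphorylate RB and let cells enter S phase. SK-N-BE(2)C has MYCN amplification and loss on the short arm of chromosome 1, IMR-32 has amplified MYCN and MEIS1 with the same arm lost, and SH-SY5Y carries mutant ALK, so line and genotype cannot be told apart. The controls were collected with the 24 h cultures and serve both comparisons, so time in culture and PB cannot be told apart at 5 d and 7 d, and the 24 h and late changes of a line share their control samples. Replicates were different passages plated in independent experiments.

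BMP ligands bind pairs of type I and type II serine/threonine kinase receptors, and the activated type I receptor phosphorylates SMAD1, SMAD5 or SMAD9, which enter the nucleus with SMAD4 and switch on target genes. The response is self-limiting, because SMAD6, SMAD7 and BAMBI are themselves targets and hold the receptors or receptor SMADs back. The ID genes are the best known targets: their products have a helix-loop-helix domain but no DNA-binding region, and they trap the E proteins that proneural factors need as partners, which keeps neural precursors from differentiating. BMPs are known for their part in making sympathetic neurons, the lineage from which neuroblastoma arises.

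The promoters of 4 of the genes are shown because these genes carry most of the differences described here: ID1 and ID3 set replicate 5 of IMR-32 apart, and SMAD6 and BAMBI had the steepest falls in SH-SY5Y. Each sequence is the 250 bases before the RefSeq start in GRCh38.p14, written 5′ to 3′ on the gene's strand: ID1 from chr20:31605039-31605288 on the plus strand, ID3 from chr1:23559502-23559751 on the minus strand, SMAD6 from chr15:66701986-66702235 on the plus strand and BAMBI from chr10:28677271-28677520 on the plus strand. Capitals mark the letters GGCGCC, a GC-rich SMAD element, and GTCTG with its reverse complement CAGAC, a form of the SMAD-binding element. Other forms of that element were not searched for and are not marked.
ID1: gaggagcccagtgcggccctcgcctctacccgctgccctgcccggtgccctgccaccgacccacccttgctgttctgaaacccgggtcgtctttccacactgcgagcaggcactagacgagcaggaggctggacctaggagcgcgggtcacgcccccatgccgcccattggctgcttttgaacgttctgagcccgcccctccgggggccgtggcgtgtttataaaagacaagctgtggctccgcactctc
ID3: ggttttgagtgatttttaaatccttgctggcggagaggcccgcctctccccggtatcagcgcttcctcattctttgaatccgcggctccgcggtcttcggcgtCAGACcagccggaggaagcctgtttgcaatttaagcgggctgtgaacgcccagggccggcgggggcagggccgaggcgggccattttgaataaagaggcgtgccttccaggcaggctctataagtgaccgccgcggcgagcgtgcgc
SMAD6: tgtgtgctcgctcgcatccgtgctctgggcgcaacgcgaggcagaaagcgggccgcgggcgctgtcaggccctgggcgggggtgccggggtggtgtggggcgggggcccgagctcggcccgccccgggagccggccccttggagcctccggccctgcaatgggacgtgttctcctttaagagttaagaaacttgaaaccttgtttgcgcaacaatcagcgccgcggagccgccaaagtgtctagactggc
BAMBI: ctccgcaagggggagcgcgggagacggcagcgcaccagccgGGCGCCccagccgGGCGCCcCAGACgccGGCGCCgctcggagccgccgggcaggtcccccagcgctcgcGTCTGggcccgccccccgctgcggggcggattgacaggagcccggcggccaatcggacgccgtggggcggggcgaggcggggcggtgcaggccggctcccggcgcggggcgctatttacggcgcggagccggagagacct
All 10 genes matched a promoter. GGCGCC, which reads the same on both strands, occurred 3 times in BAMBI and in none of the other 9, and in 16.1% of all 27305 promoter windows of this length. GTCTG or CAGAC occurred in ID3, ID4, SMAD7 and BAMBI, against 37.8% of all windows. The E-box CACGTG, also the same on both strands, was in the SMAD9 window and in 6.49% of all windows, and the E2F letters TTTGGCGC and TTTCCCGC, searched on both strands, were in none of the 10 and in 1.96% of all. A match is a run of letters and no more.

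In GRCh37, the build to which the reads were aligned, the receptor genes lie at chr10:88516353-88692582 (BMPR1A) and chr4:95679106-96079599 (BMPR1B), and the SMAD genes at chr13:37418968-37495024 (SMAD9), chr15:66994574-67075187 (SMAD6) and chr18:46446223-46477335 (SMAD7). BAMBI lies at chr10:28966439-28971861, ID1 at chr20:30193086-30194318, ID2 at chr2:8818975-8824591, ID3 at chr1:23884417-23885992 and ID4 at chr6:19837601-19842428. ID2 shares 145 exonic bases, 6.55% of its exons, with the antisense gene ID2-AS1, and no other of the 10 genes overlaps an annotated exon of another gene. The 45 libraries held 13459219 to 25441812 counts each. Levels are given as CPM (depth-scaled counts) after TMM scaling, which corrects for depth and composition. SK-N-BE(2)C passed 9 of the 10 genes through the filter on low counts, ID4 being left out, and the other lines all 10. In bulk RNA, fewer cells that express a gene and less of its RNA per cell cannot be told apart.

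In untreated cells, SK-N-BE(2)C and SH-SY5Y held abundant ID1, ID2 and ID3, and 4 of the 5 IMR-32 cultures held almost none. ID1 was 45.04, 56.2, 104, 99.5 and 104 CPM in the SK-N-BE(2)C controls, replicates 1 to 5 in order. In the SH-SY5Y controls it was 130, 107, 126, 114 and 141 CPM. In IMR-32 it was 1.22, 0.838, 1.30 and 0.950 CPM in replicates 1 to 4 and 140 CPM in replicate 5. SK-N-BE(2)C and SH-SY5Y lay next to each other with ranges that did not meet, IMR-32 replicates 1 to 4 lay far below both, and IMR-32 replicate 5 lay at the top of the SH-SY5Y range. ID3 was 150 to 209 CPM in SK-N-BE(2)C, 134 to 164 CPM in SH-SY5Y, 0.524 to 0.620 CPM in IMR-32 replicates 1 to 4, and 35.8 CPM in replicate 5; the first 2 ranges overlapped, and replicate 5 stayed below both. ID2 was 89.3 to 164 CPM in SK-N-BE(2)C, 89.0 to 140 CPM in SH-SY5Y, 2.01 to 2.70 CPM in IMR-32 replicates 1 to 4 and 20.1 CPM in replicate 5. ID4 was lower in SK-N-BE(2)C than in either other line, at 0.270 to 0.831 CPM against 2.56 to 4.54 CPM in IMR-32 and 2.02 to 6.30 CPM in SH-SY5Y.

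**Figure D1:**
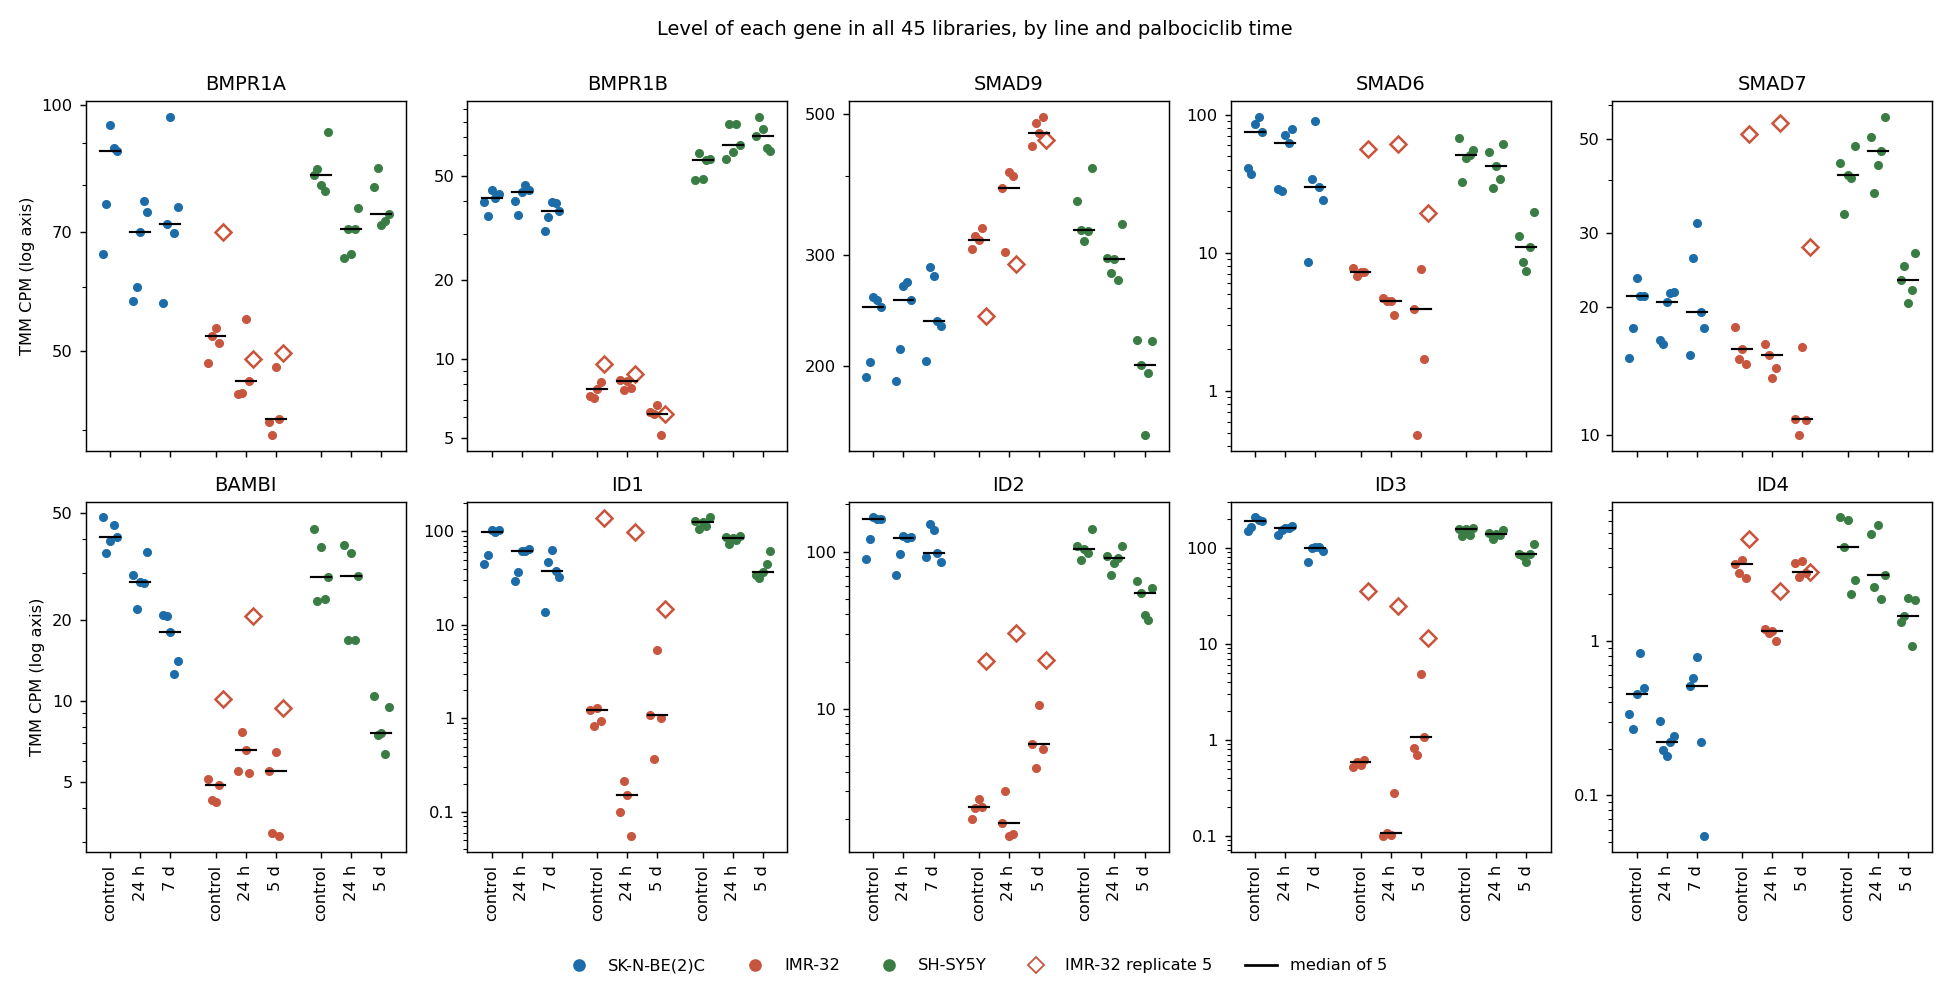
Level of each of the 10 genes in all 45 libraries, in TMM CPM on a log axis, by line and treatment time (points are replicates, bars the median of 5, open diamonds IMR-32 replicate 5). In ID1 the open diamonds stand at 140, 99.2 and 14.9 CPM above IMR-32 replicates 1 to 4, and in SH-SY5Y the 5 d points of 8 genes lie below all control points, where 47.2% of all genes tested had no overlap in either direction.

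SMAD9 and BMPR1A were abundant in all lines, and BMPR1B was low in IMR-32. SMAD9, which carries the BMP signal to the nucleus, averaged 231 ± 30.8 CPM (SD, n = 5) in SK-N-BE(2)C, 303 ± 36.4 CPM in IMR-32 and 349 ± 39.2 CPM in SH-SY5Y. BMPR1A averaged 82.6 ± 11.6, 55.0 ± 8.55 and 83.4 ± 5.52 CPM in the same order. BMPR1B, the other type I receptor, was 40.5 ± 3.42 CPM in SK-N-BE(2)C and 54.6 ± 5.83 CPM in SH-SY5Y but 7.93 ± 0.997 CPM in IMR-32, with no IMR-32 control above 9.55 CPM. Relative to length, in mean CPM per kilobase of exon, ID3 and ID1 led in SH-SY5Y (101 and 100), followed by SMAD9 (58.7), ID2 (48.7), BAMBI (14.7) and SMAD7 (10.5). SK-N-BE(2)C had ID3 (123), ID1 (66.3), ID2 (63.0), SMAD9 (38.7) and BAMBI (19.6) at the top. In IMR-32 replicates 1 to 4, SMAD9 led at 53.5 CPM per kilobase, the next was BMPR1A at 5.09, and ID1 and ID3 were at 0.873 and 0.380.

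Differences between controls were tested with edgeR's quasi-likelihood test on all 45 libraries; a gene was called at a Benjamini-Hochberg adjusted p below 0.05, over all genes tested, with an absolute log2 fold change above 0.5. Between SK-N-BE(2)C and IMR-32, 7 of the 10 genes were called, in a comparison that called 62.1% of all genes: ID2 (log2 difference 4.60), ID3 (4.66), BAMBI (2.86), BMPR1B (2.34), SMAD6 (1.99) and BMPR1A (0.57) were higher in SK-N-BE(2)C and ID4 (-2.84) was lower. Between IMR-32 and SH-SY5Y 4 were called, beside 54.2% of all genes, and all 4 were lower in IMR-32: ID2 (-4.03), ID3 (-4.17), BAMBI (-2.25) and BMPR1B (-2.56). SK-N-BE(2)C and SH-SY5Y, the neighbours in most of these orders, differed in 2 genes beside 57.5% of all genes, with ID4 (-2.98) and SMAD7 (-0.86) lower in SK-N-BE(2)C. ID1 was in none of these counts (adjusted p = 0.172, 0.093 and 0.73 in the order above). Without IMR-32 replicate 5 the counts were 8, 7 and 4, beside 63.2, 54.9 and 58.2% of all genes, with ID1 lower in IMR-32 by a log2 difference of 6.24 from SK-N-BE(2)C (adjusted p = 2.3e-14) and -6.62 against SH-SY5Y (adjusted p = 6.9e-15). These ID1 values follow an exclusion made on ID1 and ID3 themselves, so their adjusted p-values are conditional on it. SMAD6 in SK-N-BE(2)C over IMR-32 lost its call without replicate 3 (1.69, adjusted p = 0.057) or replicate 4 (1.63, adjusted p = 0.069) of every line, and SMAD7 in SK-N-BE(2)C against SH-SY5Y lost it without replicate 1 (-0.76, adjusted p = 0.070).

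Replicate 5 of IMR-32 lay above replicates 1 to 4 in ID1, ID2, ID3, SMAD6, SMAD7 and BAMBI in every group, and much less in the receptors. These are the values on which the genes were selected, so no test is given. ID1 stood first of 14293 genes tested in IMR-32 when ranked by the mean log2 difference between replicate 5 and the mean of the others over the 3 groups (5.84, with a pseudocount of 0.25 CPM), and ID3 had rank 3 (4.65). SMAD6 (3.03) had rank 10 and ID2 (2.77) rank 13. SMAD7 (1.57, rank 92) and BAMBI (1.26, rank 157) were also above every other replicate in all 3 groups. SMAD6 was 7.82, 6.80, 7.29 and 7.31 CPM in control replicates 1 to 4 and 56.0 CPM in replicate 5, and SMAD7 was 17.9, 15.1, 16.0 and 14.7 CPM against 51.4 CPM. BAMBI was 5.11, 4.29, 4.21 and 4.87 CPM against 10.2 CPM. In the controls of each of these genes 4 cultures agreed closely and the fifth stood above them. At 5 d replicates 1 to 4 spread more widely, at 0.477 to 7.64 CPM for SMAD6, 9.97 to 16.1 CPM for SMAD7 and 3.14 to 6.44 CPM for BAMBI. ID4 (0.42), BMPR1A (0.24), BMPR1B (0.16) and SMAD9 (-0.28) differed by less, and SMAD9 was the only one of the 10 whose replicate 5 was on average lower.

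The distance narrowed at 5 d. For ID1 the log2 difference was 6.72 in the controls, 8.03 at 24 h and 2.77 at 5 d, and for ID3 it was 5.46, 6.002 and 2.49. Levels changed on both sides of this difference. ID1 in replicate 5 was 140, 99.2 and 14.9 CPM at control, 24 h and 5 d, and in replicates 1 to 4 at 5 d it was 1.10, 0.371, 5.41 and 1.012 CPM, above their 24 h values and overlapping their controls. Replicate 3 at 5 d, with 5.41 CPM of ID1, 4.84 CPM of ID3 and 10.7 CPM of ID2, was the highest of replicates 1 to 4 in all 3 genes. Over all genes, 841 of 14293 (5.88%) had replicate 5 beyond every other replicate in all 3 groups with a mean absolute log2 difference above 1, of which 229 (1.60%) were higher and 612 lower. The 6 of the 10 genes in that set were all higher, and scaling by library size alone gave the same 6 among 846 genes.

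**Figure D2:**
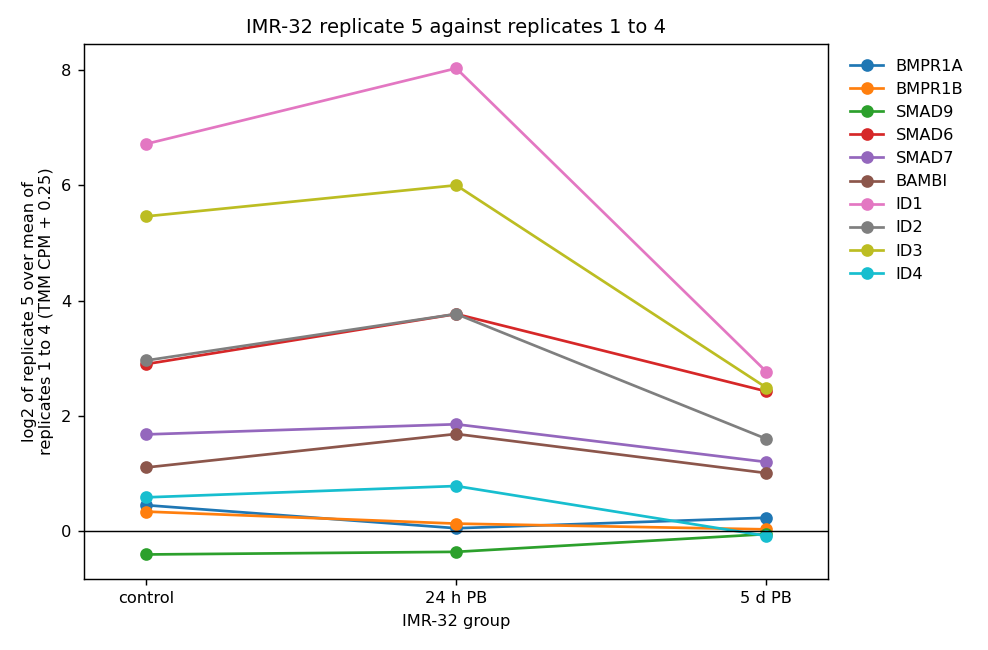
Log2 of the level in IMR-32 replicate 5 over the mean of replicates 1 to 4 (TMM CPM plus 0.25), for each of the 10 genes in the 3 IMR-32 groups. ID1 and ID3 lie highest, at 6.72 and 5.46 in the controls and 2.77 and 2.49 at 5 d, and BMPR1A, BMPR1B, ID4 and SMAD9 stay within 1 of the zero line.

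Other genes moved with replicate 5, and their part in the result was not tested. Of 10 tested genes in a list of further BMP targets, 6 were higher in replicate 5 by the same measure: SNAI2 (4.16), DLX3 (2.64), ATOH8 (2.37), MSX1 (1.93), TBX3 (1.68) and TBX2 (1.12). Among the other SMAD proteins, SMAD3, which serves TGF-beta and activin, was higher (1.54), and among receptors and intracellular antagonists TGFBR3 (1.08) and TOB1 (1.09) were. The ligands BMP8B and GDF10 were lower, and so was the proneural factor NEUROG2. The largest differences among all genes above 1 CPM were, besides ID1 and ID3, FAM43A, SAMD11 and SNAI2 upward and NWD2, HID1, TUBB4A, LDB3 and SPOCK2 downward. Of 6 tested markers of the mesenchymal neuroblastoma state, VIM, SNAI2 and IFI16 were higher, and the summed level of the list was 958 CPM in the replicate 5 control against 349 to 400 CPM in the other controls, 724 against 278 to 356 CPM at 24 h and 289 against 147 to 229 CPM at 5 d. The summed adrenergic markers were 3389 CPM against 4368 to 4887 CPM in the controls, 5753 against 5935 to 6926 CPM at 24 h and 5012 against 5026 to 5775 CPM at 5 d, none of those markers was at 0, and TH, the enzyme that starts catecholamine synthesis, was lower (-3.40). Summed fibroblast markers were 299 CPM against 163 to 198 CPM in the controls, 249.7 against 129 to 159 CPM at 24 h and 100.1 against 66.2 to 74.6 CPM at 5 d, with PDGFRA higher. Summed Schwann cell markers were 25.6 CPM against 9.11 to 12.7 CPM in the controls and 14.0 against 5.96 to 8.20 CPM at 24 h, and at 5 d 8.66 CPM lay inside the range of 6.43 to 9.80 CPM, with PMP22 higher and CDH19 and MIA at 0 in all IMR-32 controls. Endothelial markers summed to 3.03 CPM against 3.83 to 5.58 CPM in the controls, 2.28 against 3.77 to 5.41 CPM at 24 h and 2.78 against 3.93 to 5.51 CPM at 5 d, with PECAM1, TEK and CLDN5 at 0 in all IMR-32 controls and TIE1 lower. Proliferation markers summed to 3726 CPM against 2430 to 2740 CPM in the controls, 521 against 421 to 455 CPM at 24 h and 1575 against 955 to 1226 CPM at 5 d. Immediate early genes summed to 166 CPM against 245 to 294 CPM in the controls and 198 against 314 to 343 CPM at 24 h. At 5 d their sum was 431 against 443 to 521 CPM. Neither of these lists had a member past the limits.

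SH-SY5Y had the most of the 10 genes called under PB. After 24 h only ID1 was called, in a comparison that called 21.5% of 14547 genes, and after 5 d 8 of the 10 genes were lower than control, in a comparison that called 35.9%: all 4 ID genes, SMAD6, SMAD7, SMAD9 and BAMBI. The receptors were not among them. The median log2 fold change of the 10 genes at 5 d was -0.95, beside 0.01 over all genes tested.

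BMPR1A was 78.7 to 92.7 CPM in the SH-SY5Y controls, 65.0 to 75.0 CPM at 24 h and 71.4 to 83.7 CPM at 5 d, a log2 fold change at 5 d of -0.13 (SE 0.06, adjusted p = 0.065). BMPR1B was 48.2 to 60.8 CPM in the controls and 62.4 to 83.9 CPM at 5 d, ranges that did not overlap, yet its log2 fold change of 0.38 (SE 0.10, adjusted p = 0.0028) stayed under the limit of 0.5. SMAD9, which acts directly below these receptors, was 365, 329, 315, 327 and 411 CPM in the controls, 296, 280, 295, 273 and 335 CPM at 24 h and 220, 201, 155, 195 and 219 CPM at 5 d. Each replicate number was lower at 24 h than in its control and lower again at 5 d, and the 5 d values did not overlap either earlier group. SMAD9 fell 1.76-fold at 5 d (log2 fold change -0.82, SE 0.09, adjusted p = 4.7e-07), and at 24 h its change of -0.24 (adjusted p = 0.038) was under the fold limit.

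SMAD6 and BAMBI had the steepest falls in SH-SY5Y, and the feedback gene SMAD7 fell too. SMAD6, which competes with SMAD4 for receptor SMADs, was 67.5, 32.5, 48.4, 50.7 and 55.5 CPM in the controls, 53.7, 29.5, 42.6, 34.1 and 61.5 CPM at 24 h and 13.2, 8.63, 7.34, 11.1 and 19.7 CPM at 5 d. BAMBI, a receptor-like protein without a kinase domain, was 43.6, 23.6, 37.4, 24.0 and 29.1 CPM, then 38.0, 16.9, 35.6, 16.9 and 29.2 CPM, then 10.42, 7.50, 7.63, 6.33 and 9.53 CPM. In both genes control and 24 h overlapped, and every 5 d value was below every earlier one. SMAD6 was 4.28-fold lower than control at 5 d (log2 fold change -2.10, SE 0.28, adjusted p = 1.3e-05) and BAMBI 3.81-fold lower (-1.93, SE 0.26, adjusted p = 1.2e-05), against -0.20 (adjusted p = 0.54) and -0.21 (adjusted p = 0.50) at 24 h. SMAD7, which recruits ubiquitin ligases to the receptors, was 33.2 to 48.0 CPM in the controls, 37.3 to 56.4 CPM at 24 h and 20.5 to 26.8 CPM at 5 d. It was 1.76-fold lower than control at 5 d (log2 fold change -0.82, SE 0.11, adjusted p = 4.0e-06), with no overlap.

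The ID genes fell in SH-SY5Y as well, ID1 already at 24 h. ID1 was 86.2, 74.4, 85.5, 81.4 and 90.5 CPM at 24 h and 34.6, 31.6, 36.9, 45.2 and 62.0 CPM at 5 d, and the control, 24 h and 5 d values formed a descending order without overlap. Its log2 fold change was -0.56 (SE 0.14, adjusted p = 0.0034) at 24 h and -1.56 (SE 0.14, adjusted p = 1.4e-07) at 5 d, a 2.94-fold fall. ID2 was 109, 89.0, 104, 97.2 and 140 CPM in the controls, 70.9 to 108 CPM at 24 h and 64.7, 54.9, 39.5, 36.9 and 59.0 CPM at 5 d. ID3 was 159, 134, 159, 138 and 164 CPM in the controls, 126 to 154 CPM at 24 h and 87.5, 83.0, 72.1, 86.0 and 111 CPM at 5 d. For ID2 and ID3 the 5 d cultures lay below all controls and all 24 h cultures, and the log2 fold changes at 5 d were -1.08 (SE 0.16) and -0.78 (SE 0.09). ID4 was 2.02 to 6.30 CPM in the controls and 0.927 to 1.90 CPM at 5 d, with a log2 fold change of -1.49 (SE 0.37, adjusted p = 0.0020). Between 24 h and 5 d the same 8 genes were lower, beside 16.7% of all genes called, with log2 fold changes from -0.58 (SMAD9) to -1.89 (SMAD6). The call of ID4 in that last comparison (-1.20, adjusted p = 0.017) was lost without replicate 1 (-0.99), replicate 3 (-1.06) or 24 h replicate 3 (-0.93), and the other 7 calls held in every leave-out.

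In SK-N-BE(2)C fewer genes were called: BAMBI at 24 h, and BAMBI, ID1 and ID3 at 7 d. BAMBI was 48.3, 35.6, 39.6, 45.2 and 40.8 CPM in the controls, 29.5, 22.0, 27.9, 27.4 and 35.9 CPM at 24 h and 20.9, 20.8, 18.1, 12.6 and 14.1 CPM at 7 d. Every replicate number was lower at each later time, although the numbers did not pair the 7 d cultures with the others. Control and 24 h met only through 35.6 and 35.9 CPM, and 7 d was below both. BAMBI was the 1 gene of 9 called at 24 h, beside 21.5% of all 14055 genes (log2 fold change -0.55, SE 0.14, adjusted p = 0.0050), and it lost that call by the fold limit without 24 h replicate 2 (-0.48) or control replicate 1 (-0.50). At 7 d 3 of the 9 genes were called, beside 46.8% of all genes, and BAMBI was 2.42-fold lower (-1.27, SE 0.15, adjusted p = 1.1e-06). ID3 was 150, 166, 209, 199 and 194 CPM in the controls, 138, 155, 161, 163 and 169 CPM at 24 h and 72.4, 100.3, 104, 103 and 92.6 CPM at 7 d, with 7 d below both. Its log2 fold change at 7 d was -0.96 (SE 0.10, adjusted p = 4.6e-07), a 1.94-fold fall. Against 24 h, ID3 (-0.73) and BAMBI (-0.72) were lower at 7 d, beside 31.9% of all genes called.

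ID1 and SMAD6 varied widely among the SK-N-BE(2)C cultures. ID1 was 29.8, 36.7, 62.1, 61.5 and 64.9 CPM at 24 h and 13.9, 47.5, 63.4, 37.4 and 32.9 CPM at 7 d. Replicates 1 and 2 were below replicates 3 to 5 in the controls and at 24 h, and the groups overlapped. Every replicate number was lower under PB than the control of the same number, but the numbers did not pair the cultures at 7 d. The log2 fold change of ID1 was -0.68 (SE 0.35, adjusted p = 0.129) at 24 h and -1.06 (SE 0.36, adjusted p = 0.015) at 7 d, and the 7 d call was lost without replicate 4 (-0.97, adjusted p = 0.067) or replicate 5 (-0.90, adjusted p = 0.079). With the replicate number as a block, ID1 was called at 24 h too (-0.67, adjusted p = 0.018), which made 2 genes beside 22.7% of all genes, and without replicate 1 it was also called there (-0.71, adjusted p = 0.040). SMAD6 was 41.2, 37.3, 85.7, 96.6 and 75.3 CPM in the controls and 8.62, 34.4, 89.7, 29.8 and 23.9 CPM at 7 d. Replicate 3 at 7 d stood apart from the other 4: SMAD6 had a log2 fold change of -0.83 (SE 0.50, adjusted p = 0.145) with it and -1.47 (adjusted p = 0.0094) without it, and against 24 h it was called without it too (-1.14, adjusted p = 0.041). SMAD7 (0.17), SMAD9 (0.10), BMPR1A (-0.15), BMPR1B (-0.16) and ID2 (-0.31) were not called at 7 d, and ID4 was at 0.0544 to 0.831 CPM in all 15 libraries.

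IMR-32 gave different answers with and without replicate 5. With all 5 replicates 1 gene of 10 was called in each comparison: ID4 lower at 24 h (18.3% of all 14293 genes called), SMAD9 higher at 5 d (32.0% called) and ID4 higher at 5 d than at 24 h (19.6% called). ID4 was 3.14, 2.76, 3.35, 2.56 and 4.54 CPM in the controls, 1.19, 1.12, 1.16, 0.993 and 2.09 CPM at 24 h and 3.19, 2.597, 3.31, 2.77 and 2.78 CPM at 5 d. The 24 h cultures were below all others and the 5 d cultures were back in the control range. ID4 fell 2.50-fold at 24 h (log2 fold change -1.32, SE 0.22, adjusted p = 2.7e-04) and rose 2.24-fold from 24 h to 5 d (1.16, SE 0.22, adjusted p = 9.3e-04). SMAD9 was 306, 321, 317, 330 and 240 CPM in the controls, 382, 303, 406, 399 and 289 CPM at 24 h and 445, 484, 467, 496 and 455 CPM at 5 d. All 5 d cultures were above all earlier ones, and SMAD9 rose 1.55-fold over control (0.63, SE 0.11, adjusted p = 2.0e-04). Both genes kept these calls without replicate 5 (ID4 -1.40 at 24 h, SMAD9 0.57 at 5 d).

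Without replicate 5, ID1, ID2 and ID3 entered the calls in IMR-32. Replicate 5 was set apart on its values of ID1 and ID3, so tests of those genes without it are conditional on that choice. ID1 at 24 h was 0.0988, 0.214, 0.151 and 0.0552 CPM in replicates 1 to 4, from 2, 4, 3 and 1 counts, below all 4 control cultures. The 10 counts at 24 h against 92 in the controls gave an 8.56-fold lower rate, with a 95% exact interval of 4.45 to 18.5 that covers counting error only. The test without replicate 5 gave a log2 fold change of -2.99 (SE 0.89, adjusted p = 0.015) at 24 h and 3.85 (SE 0.83, adjusted p = 0.0019) from 24 h to 5 d, and at 5 d ID1 was not called against control (0.86, adjusted p = 0.22). ID3 was 0.0988, 0.107, 0.101 and 0.276 CPM at 24 h and 0.811, 0.689, 4.84 and 1.07 CPM at 5 d in those replicates. Its 11 counts at 24 h were 4.15-fold below the 49 in the controls (interval 2.13 to 8.84), with a log2 fold change of -1.95 (adjusted p = 0.072), and at 5 d it was higher than control (1.68, SE 0.55, adjusted p = 0.016) and than 24 h (3.62, adjusted p = 7.8e-04). ID2 was 2.01, 2.36, 2.70 and 2.40 CPM in the controls, 1.88, 2.9998, 1.56 and 1.60 CPM at 24 h and 6.03, 4.24, 10.7 and 5.54 CPM at 5 d, higher at 5 d than both (1.48, adjusted p = 1.7e-04, and 1.71, adjusted p = 1.0e-04). In these 4 cultures ID1 and ID3 were lowest at 24 h and ID2 was highest at 5 d, with no overlap in the pairs named. The counts of genes called were then 2, 3 and 4 for 24 h, 5 d and 5 d against 24 h, beside 20.2, 35.0 and 24.5% of all genes. With all 5 replicates ID1 (-0.53), ID2 (0.38) and ID3 (-0.58) at 24 h had adjusted p-values of 0.79 to 0.85. At 5 d with all 5 replicates ID1 was -2.65 (SE 1.91, adjusted p = 0.26) and ID3 -0.99 (SE 1.58, adjusted p = 0.62), opposite in sign to the values without replicate 5.

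The feedback genes of IMR-32 were not called with all 5 replicates unless the replicate block was fitted. SMAD6 at 5 d was 3.94, 0.477, 7.64 and 1.70 CPM in replicates 1 to 4 and 19.5 CPM in replicate 5, a spread of more than one order of magnitude. At 24 h it was 4.74, 4.4996, 4.48 and 3.53 CPM in replicates 1 to 4, below all 4 controls, and 61.8 CPM in replicate 5, above its own control. The replicate numbers paired the IMR-32 cultures, and with the number as a block SMAD6 (-1.36, SE 0.40, adjusted p = 0.012) and SMAD7 (-0.52, SE 0.13, adjusted p = 0.0043) were lower and ID2 (1.18, SE 0.36, adjusted p = 0.013) higher at 5 d, which made 4 genes called beside 35.0% of all genes in that fit. The block also called BAMBI higher at 24 h (0.57, SE 0.20, adjusted p = 0.030) and lower from 24 h to 5 d (-0.64, adjusted p = 0.018), and ID2 higher from 24 h to 5 d (1.11, adjusted p = 0.027), for 2 and 3 genes beside 21.8 and 23.1% of all genes. BAMBI was higher at 24 h than in the control of the same number in 5 of 5 pairs, from 5.11, 4.29, 4.21, 4.87 and 10.2 CPM to 5.48, 7.66, 6.59, 5.41 and 20.7 CPM. SMAD7 was lower at 5 d than in its control in 4 of 5 pairs, at 10.9, 9.97, 16.1, 10.8 and 27.7 CPM. With the block and without replicate 5, a fit chosen after seeing the data, ID3 was called at 24 h (-2.06, adjusted p = 0.029) and SMAD6 at 5 d (-1.27, adjusted p = 0.017), and SMAD7 and BAMBI were not. The receptors BMPR1A (-0.33, adjusted p = 0.017) and BMPR1B (-0.38, adjusted p = 0.010) were under the fold limit at 5 d.

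**Figure D3:**
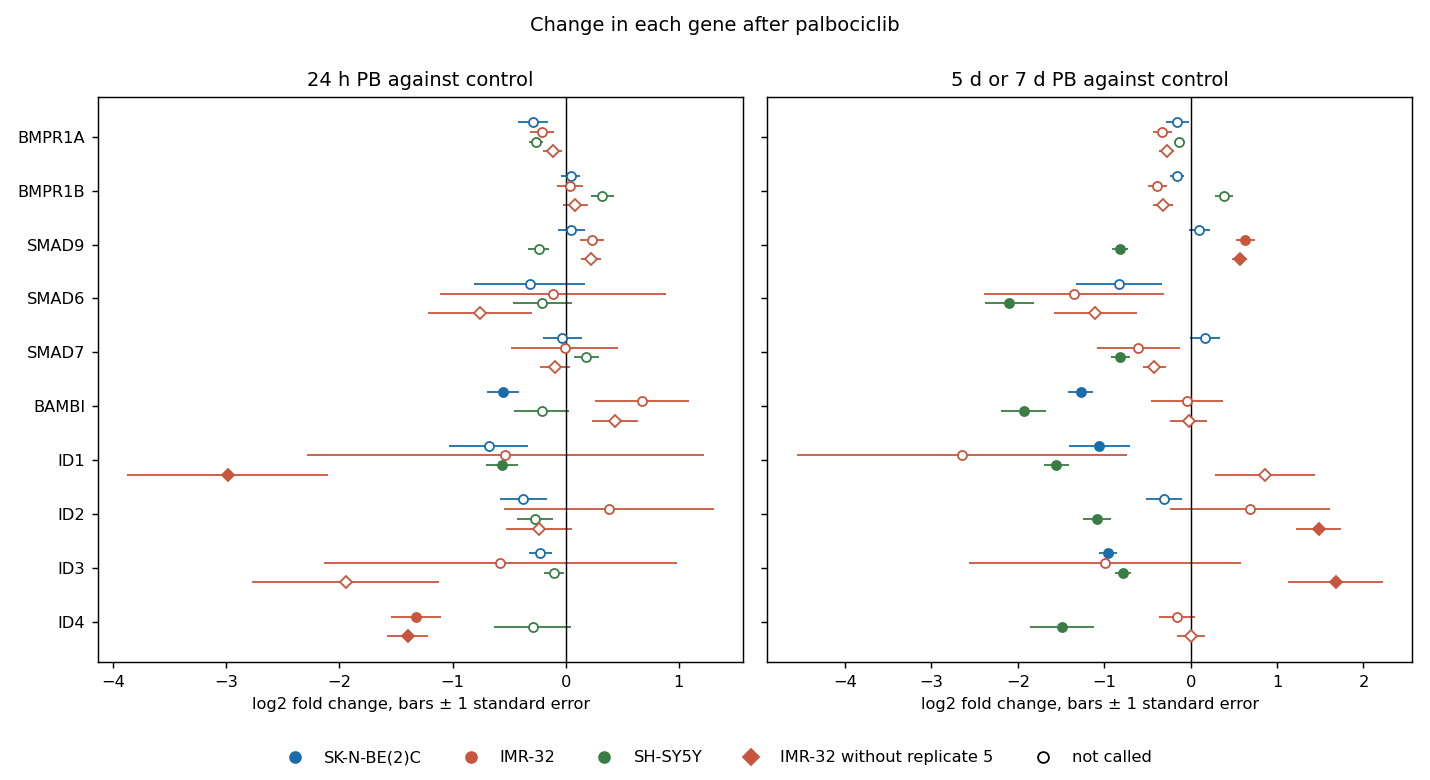
Log2 fold change of each of the 10 genes against control, at 24 h (left) and at 5 d or 7 d (right), with bars of 1 standard error on either side (colours are lines, diamonds IMR-32 without replicate 5, filled symbols genes called, open symbols genes not called). At the later time SH-SY5Y has 8 filled symbols left of zero, from -0.78 for ID3 to -2.10 for SMAD6, and IMR-32 has SMAD9 filled at 0.63.

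The responses themselves were compared between lines by interaction contrasts. At 24 h none of the 10 genes differed in edgeR's test for any pair of lines: 0 called for SK-N-BE(2)C minus IMR-32 (4.49% of all genes called), 0 for SK-N-BE(2)C minus SH-SY5Y (2.04%) and 0 for IMR-32 minus SH-SY5Y (3.07%). At an unadjusted p below 0.05 there were 1 (BAMBI), 1 (BMPR1B) and 3 genes (SMAD9, ID4 and BMPR1B), and RLE factors or no filter on low counts also gave 0 for each pair. With the replicate block within line, BAMBI differed between SK-N-BE(2)C and IMR-32 (-1.13, SE 0.24, adjusted p = 0.0014), and BAMBI (0.78, SE 0.24, adjusted p = 0.032) and ID4 (-1.08, SE 0.34, adjusted p = 0.036) between IMR-32 and SH-SY5Y, in fits that called 6.88 and 5.69% of all genes. At 5 d 4 genes differed between IMR-32 and SH-SY5Y, beside 20.8% of all genes: SMAD9 (difference of log2 fold changes 1.39, SE 0.16, adjusted p = 1.3e-08), BAMBI (1.84, SE 0.44, adjusted p = 0.0015), ID4 (1.27, SE 0.44, adjusted p = 0.025) and BMPR1B (-0.83, SE 0.14, adjusted p = 2.4e-05). SMAD9 rose in one line and fell in the other, and BAMBI and ID4, which fell in SH-SY5Y, had values of -0.04 and -0.16 in IMR-32 (adjusted p = 0.94 and 0.55). Without IMR-32 replicate 5 the count was 7 beside 24.0% of all genes, and ID1 (2.36), ID2 (2.51) and ID3 (2.39) joined, while the block added ID2 alone (2.10, adjusted p = 6.5e-05) beside 23.9% of all genes called. ID1 and ID3 joined through an exclusion made on their own values. The call of ID4 was lost without replicate 1 (0.99), 2 (1.27) or 3 (1.18) of all lines, with adjusted p-values of 0.082 to 0.18. The 7 d change of SK-N-BE(2)C was not compared with the 5 d changes, since time and line cannot be told apart there.

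The likeness of other genes to ID1 differed between lines. Over the 45 libraries, after the mean of each line was subtracted, ID3 was the gene most like ID1 of 11619 genes compared (Pearson r = 0.96 on log2 CPM), ID2 had rank 3 (0.89), SMAD6 rank 17 (0.81) and SMAD7 rank 19 (0.81). BAMBI had an r of 0.57 and SMAD9 of -0.01. The most similar genes outside the 10 were FAM43A (0.90), SNAI2 (0.89), PRAG1 (0.88), SNAI1 (0.87) and PIEZO1 (0.86), and over the 15 IMR-32 libraries BCL2, LPAR1, PRAG1, FAM43A and MAN1A1 (0.95 to 0.97). These values are descriptions: libraries share cultures' numbers and treatment groups, and replicate 5 of IMR-32 sets most of the range. In the 12 libraries of IMR-32 replicates 1 to 4, ID3 kept an r of 0.90 with ID1 and SMAD6 had 0.34. In the 15 libraries of SH-SY5Y the r with ID1 was 0.95 for ID3 (rank 120), 0.93 for SMAD6 (rank 265) and 0.92 for SMAD9 (rank 364). In SK-N-BE(2)C it was 0.94 for SMAD6 (rank 4) and 0.81 for ID3 (rank 119), so over 100 genes were more like ID1 than ID3 was in each of these lines.

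**Figure D4:**
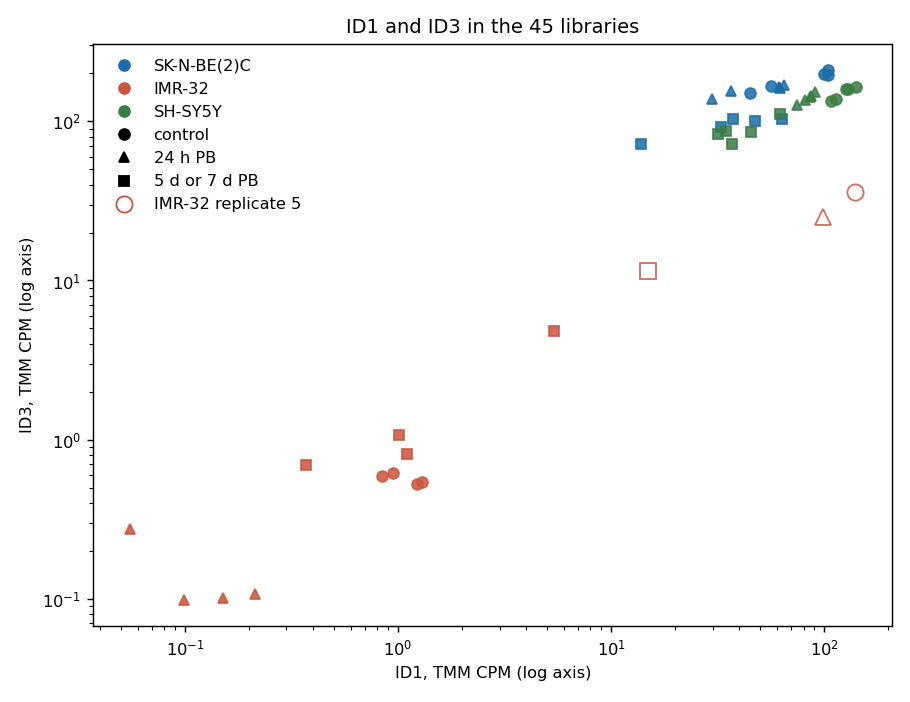
ID1 against ID3 in the 45 libraries, both in TMM CPM on log axes (colours are lines, shapes treatment times, open symbols IMR-32 replicate 5). IMR-32 replicates 1 to 4 fall between 0.0552 and 5.41 CPM of ID1, replicate 5 between 14.9 and 140 CPM, and the other lines lie at the upper right.

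The rest of the pathway was read from lists of genes in the same role. At the later time the BMP ligands divided: of the genes tested, 4 rose and 1 fell of 8 in SK-N-BE(2)C, 1 rose and 4 fell of 10 in IMR-32, and 1 rose and 2 fell of 9 in SH-SY5Y. In IMR-32 the ligands BMP4 (-2.14) and GDF10 (-4.10) fell. Receptors and co-receptors had 4 higher and 2 lower of 13, 1 and 2 of 12, and 2 and 2 of 12 in the same order of lines. TGFBR3 (-3.03) fell in IMR-32, and ACVRL1, a type I receptor, fell in IMR-32 (-2.71) and rose in SH-SY5Y (0.82). Among 5 other SMAD proteins 1 was lower in every line and 1 higher in IMR-32: SMAD3 fell in all lines (-0.52, -2.98 and -0.69 in the same order), and SMAD1, which carries the BMP signal beside SMAD9, rose in IMR-32 (1.29). These pathway lists were read at the same call limits, in comparisons that called 46.8, 32.0 and 35.9% of all genes.

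Antagonists moved both ways. Of extracellular antagonists 2 rose and 2 fell of 6 in SK-N-BE(2)C, 1 and 4 of 8 in IMR-32, and 3 and 1 of 8 in SH-SY5Y. FSTL3, which binds activins, rose in all lines (0.53, 0.54 and 1.495), GREM1 fell in SK-N-BE(2)C (-1.62) and SH-SY5Y (-3.32), and the BMP trap NOG fell in IMR-32 (-2.02). Intracellular antagonists had 2 higher and 2 lower, 1 and 2, and 0 and 1 of 11 tested. The SMAD corepressor TGIF1 fell in all lines (-0.55, -1.69 and -1.16), and TGIF2 in SK-N-BE(2)C (-0.85). Other BMP targets, outside the 10 genes, had 2 higher and 5 lower of 11 in SK-N-BE(2)C, 1 and 2 of 10 in IMR-32, and 0 and 5 of 9 in SH-SY5Y. Their medians were -0.30, -1.18 and -0.85, beside medians near 0 over all genes, and the IMR-32 median was -0.66 without replicate 5. ATOH8 (-2.33 and -3.01) and SNAI2 (-1.95 and -2.81), both transcription factors, fell in SK-N-BE(2)C and SH-SY5Y, and in IMR-32 their values were -1.47 (adjusted p = 0.12) and -2.61 (adjusted p = 0.21).

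The helix-loop-helix partners of the ID proteins were read at both times. Of E proteins and partner factors, 3 of 11 rose in IMR-32 at 24 h and none fell (2 rose and 1 fell without replicate 5), and 1 of 7 fell in SK-N-BE(2)C and 2 of 9 in SH-SY5Y, in 24 h comparisons that called 18.3, 21.5 and 21.5% of all genes. At the later time 2 fell of 7 in SK-N-BE(2)C, 4 of 11 in IMR-32, and 4 fell and 1 rose of 9 in SH-SY5Y. TWIST1 fell in all lines (-0.94, -0.57 and -1.13), and NEUROD4 in IMR-32 (-3.91). TGF-beta targets had 2 higher and 2 lower of 7, 0 and 2 of 5, and 1 and 2 of 7, with ACTA2 lower in all lines (-1.10, -0.77 and -1.26) and COL1A1 lower in IMR-32 (-2.09) and SK-N-BE(2)C (-1.34). Without replicate 5, IMR-32 had 1 ligand higher and 5 lower of 10, 1 receptor or co-receptor higher and 4 lower of 12, and 1 extracellular antagonist higher and 6 lower of 8. Intracellular antagonists then had 1 higher and 3 lower of 11, other BMP targets 1 and 3 of 9 with ATOH8 lower (-1.88), E proteins and partners 0 and 5 of 11, and TGF-beta targets 1 and 2 of 5, beside 35.0% of all genes called.

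**Figure D5:**
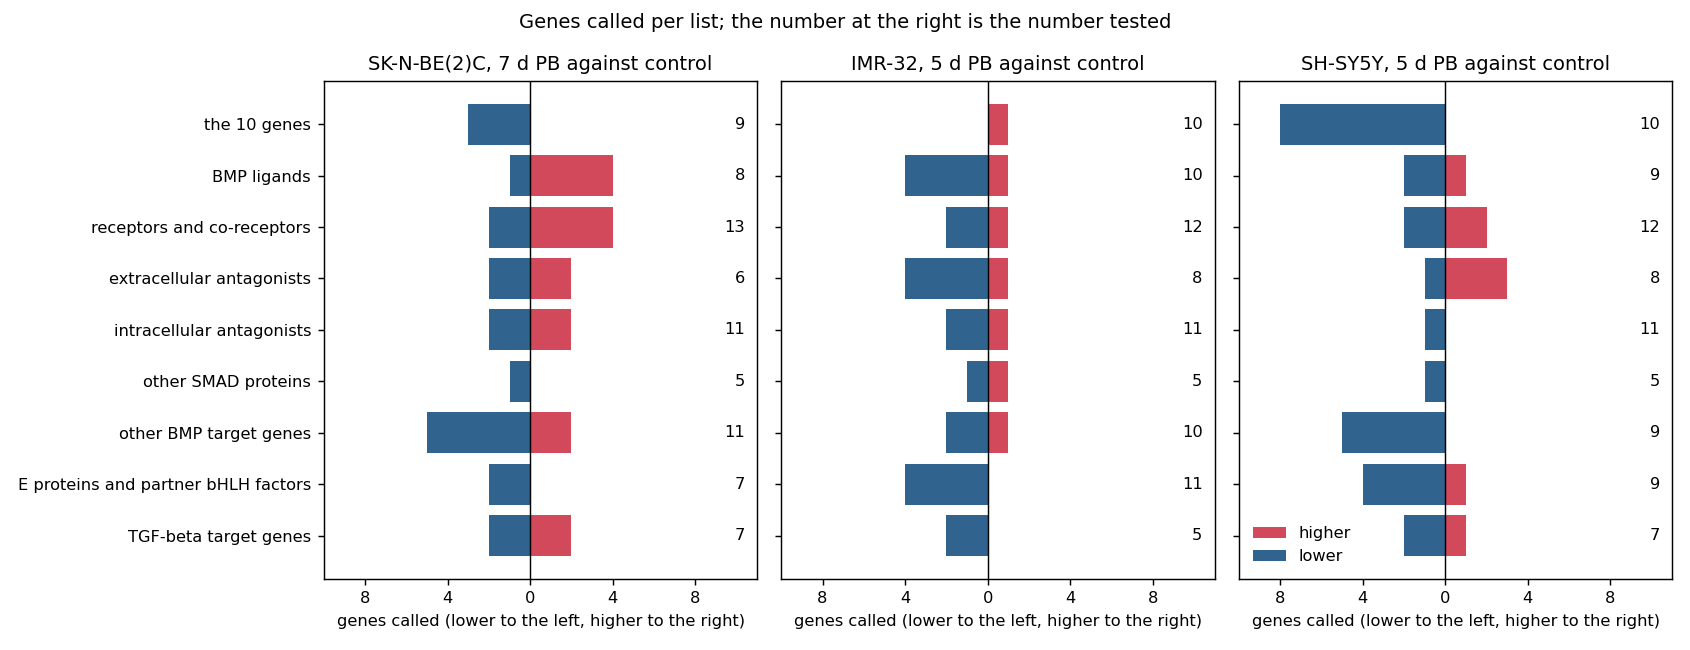
Number of genes called lower (left of zero) and higher (right of zero) at 5 d or 7 d of PB against control in each line, for the 10 genes and for 8 lists of other pathway genes, with the number tested at the right edge. In SH-SY5Y the 10 genes have 8 of 10 lower and the other BMP targets 5 of 9 lower, and BMP ligands run 4 higher to 1 lower in SK-N-BE(2)C and 1 to 4 in IMR-32.

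Cell cycle and cell state markers moved in the same samples, and their part in the changes of the 10 genes was not tested. All 10 proliferation markers fell at 24 h in each line, and 10, 9 and 10 were lower at the later time, with MKI67 at -3.38, -1.37 and -3.34 and AURKB at -3.47, -1.93 and -3.19 in that order of lines, SK-N-BE(2)C first and SH-SY5Y last. From 24 h to the later time 1, 10 and 8 of them rose. The later comparisons called 46.8, 32.0 and 35.9% of all genes, in the same order, beside every later count with all replicates in these marker lists. The immediate early gene JUN rose at the later time in all lines (0.56, 1.54 and 0.78), in a list of which 6, 3 and 2 rose and 2, 1 and 1 fell of 10, 8 and 10 tested, and FOSB rose in SH-SY5Y (1.21). All 10 adrenergic markers were tested in every line. At 24 h 1, 5 and 2 of them rose and none fell, where 21.5, 18.3 and 21.5% of all genes were called in either direction, and at the later time 0, 1 and 1 rose and 2, 1 and 1 fell. DBH fell in IMR-32 (-4.09). Of mesenchymal markers 5 of 8, 3 of 6 and 6 of 8 fell and 1, 0 and 1 rose, with VIM lower in all lines (-0.93, -1.32 and -0.53) and YAP1 in IMR-32 (-3.59) and SH-SY5Y (-0.68). In IMR-32 the log2 difference of YAP1 between replicate 5 and the other replicates was 3.77 in the controls and -0.05 at 5 d. Fibroblast markers had 4 higher and 1 lower of 7, 1 and 3 of 5, and 1 and 3 of 8, with DCN higher in all lines (1.23, 2.40 and 0.96) and COL1A2 lower in SH-SY5Y (-2.997), while FAP was at 0 in every SK-N-BE(2)C library. Schwann cell markers had 1 higher and 2 lower of 5, 1 and 1 of 2, and 2 and 1 of 4, with PMP22 lower in all lines (-1.23, -2.82 and -0.65) and ERBB3 lower in SK-N-BE(2)C (-0.79) and higher in SH-SY5Y (2.15). Endothelial markers had 2, 1 and 0 higher and 0, 1 and 0 lower of 4, 3 and 3, with ERG higher in SK-N-BE(2)C (4.52) and TIE1 in IMR-32 (2.99), and their summed level was 14.3 CPM or less in SK-N-BE(2)C, 5.58 CPM or less in IMR-32 and 39.9 to 65.5 CPM in SH-SY5Y. Without replicate 5, the IMR-32 counts at 5 d were 0 higher and 4 lower of 5 mesenchymal markers. Immediate early genes then had 4 and 1 of 9, proliferation markers 0 and 9 of 10 and adrenergic markers 1 and 1 of 10. Fibroblast markers had 1 and 3 of 5, Schwann cell markers 1 and 1 of 2 and endothelial markers 2 and 1 of 4. The share of all genes called in that fit is given above.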

How the data were processed

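RNA was extracted with DNase treatment, and polyadenylated, directional libraries were sequenced as paired ends. The authors trimmed the reads with Trim Galore 0.6.4 at a phred score of 20 and aligned and counted them with STAR against hg19 (version 2.6.1d in the submitters' processing notes, while the study's methods list a different release); which annotation and strand were counted is not stated here. The deposited values used here are raw counts per gene, 1 table for each line. Deposited CPM tables and the authors' comparison tables (fold changes and p-values from DESeq2 1.32.0) were not used. Each of the 45 columns matched 1 sample, and groups and replicate numbers came from the labels. Libraries held 13459219 to 25441812 counts. The closest replicate pair differed by a chi-square of 1.69 per degree of freedom, so none was merged.

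The 15 libraries of a line were fitted together in edgeR 4.0.16 (R 4.3.3) with TMM scaling, filterByExpr (minimum count 10, total 15, proportion 0.7) and the robust quasi-likelihood F-test, and p-values were adjusted by Benjamini-Hochberg over all genes of the fit. Calls needed an adjusted p below 0.05 and an absolute log2 fold change above 0.5, limits taken from the study. All 45 libraries were fitted together for differences between lines. Tests had 14293 genes for IMR-32, 14547 for SH-SY5Y and 14055 for SK-N-BE(2)C. Alternatives were RLE factors, library size alone, no filter, DESeq2 1.42.0, no fold limit, a replicate block, and leaving out each replicate or library. The scripts were tested on simulated counts. Replicate numbers were taken as pairing the cultures where every pair of same-numbered libraries correlated above 0.1 in its deviations: this held in IMR-32 (lowest 0.114), in SH-SY5Y (lowest 0.109) and in SK-N-BE(2)C at 24 h (lowest 0.243), but not in SK-N-BE(2)C at 7 d against control (lowest 0.0966) or against 24 h (lowest 0.0482). Intervals on counts are exact, at 95%, and cover counting error only. The 10 genes and the gene lists were chosen with earlier results of these data known. Genes outside the 10 were named by fixed rules: the 2 genes of each list with the largest mean late change among those called, those called alike in every line, the 5 most like ID1, and the 5 with the largest distance of replicate 5 in each direction above 1 CPM. Promoters came from RefSeq on GRCh38.p14.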

Additional observations from a re-analysis of the deposited data

Results flagged for a closer look

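IMR-32 replicate 5 lay far from the other 4 cultures in 15 combinations of gene and group, of 90 checked. The measure was the gap in CPM to the nearest culture over the range of all 5, with a limit of 0.71. The genes were selected on this culture, so these values describe it and are no test. It was the highest of 5 for ID1 in the controls (140 CPM) and at 24 h (99.2 CPM), for ID2 (20.1 and 30.5 CPM) and for ID3 (35.8 and 25.1 CPM). The same held for SMAD6 (56.0 and 61.8 CPM), SMAD7 (51.4 and 54.6 CPM) and BAMBI (10.2 and 20.7 CPM), for ID4 at 24 h (2.09 CPM) and for BMPR1A in the controls (69.9 CPM). It was the lowest for SMAD9 in the controls (240 CPM). No gene passed this limit at 5 d, although replicate 5 still lay above every other replicate there for ID1, ID2, ID3, SMAD6, SMAD7 and BAMBI.

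The 5 d response differed between IMR-32 and SH-SY5Y in the interaction contrast of edgeR for 4 genes. The log2 differences were 1.39 for SMAD9, 1.84 for BAMBI, 1.27 for ID4 and -0.83 for BMPR1B.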

How the results depend on the processing

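RLE factors, library size alone, DESeq2 and no filter left every count of called genes within 1.5 times the reported one; ID4 in SK-N-BE(2)C, tested only without the filter, was not called (-0.99 at 24 h and -0.09 at 7 d). With no fold limit the counts were 3 for IMR-32 at 5 d, 3 from 24 h to 5 d and 4 for SH-SY5Y at 24 h. With the replicate block they were 2 for SK-N-BE(2)C at 24 h, 2, 4 and 3 for IMR-32 (24 h, 5 d, 5 d against 24 h), and 1 and 2 for the 24 h differences of SK-N-BE(2)C and of SH-SY5Y from IMR-32; in SK-N-BE(2)C at 7 d, where the numbers did not pair the cultures, it added SMAD6 (-0.99, adjusted p = 0.022), and it changed no call in SH-SY5Y. Leaving out libraries gave 0 to 2 for SK-N-BE(2)C at 24 h, 1 to 3, 1 to 3 and 1 to 4 for IMR-32, 3 to 7 for the 5 d difference between lines, and, in controls, 1 to 4 for SK-N-BE(2)C against SH-SY5Y and 4 to 7 for IMR-32 against SH-SY5Y. The block without replicate 5 gave 3, 4 and 4 in IMR-32. Signs turned where replicate 5 libraries were left out: at 5 d ID1 became 0.86, not called, and ID3 1.68 (1.41 with the block), and from 24 h to 5 d ID1 became 3.85 (3.67) and ID3 3.62 (3.47). The 5 d difference from SH-SY5Y became 2.36 for ID1 and 2.39 for ID3 without IMR-32 replicate 5, and 2.47 and 2.44 without replicate 5 of every line; the cause was not tested. Over all leave-outs ID3 at 5 d ran from -2.03 to 2.72, ID1 and ID3 from 24 h to 5 d from -3.33 to 5.06 and from -1.45 to 4.66, and their 5 d difference between lines from -1.55 to 2.47 and from -0.69 to 2.44. Without the 24 h library of replicate 5 alone, ID1 (-7.71) and ID3 (-5.65) were called at 24 h, and ID2 (2.22) from 24 h to 5 d. That choice keeps the high control of replicate 5 and lowers the 24 h level of ID1 and ID3 beforehand, so their calls follow from it. Over all alternatives the 24 h change of ID1 ran from -7.71 to 4.19 and that of ID3 from -5.65 to 3.13, so its sign turned too. ID2 in SK-N-BE(2)C at 24 h was called without control replicate 1 (-0.50). Low counts limit ID1 and ID3 in IMR-32 replicates 1 to 4, at 1 to 5 counts a library at 24 h.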
